A study of Nicotiana tabacum with 21 samples.

Results

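The transcripts described here were on in the auxin-habituated tobacco line BY-2H and silent in its auxin-dependent counterpart BY-2. They were chosen by their measured levels: a mean of at least 2 TPM (a length-scaled abundance that adds up to the same total in every library) in exponential and in stationary BY-2H cells, and fewer than 1 estimated read in each of the 3 BY-2 libraries. The rule selected 764 of 69491 annotated transcripts, which is 2.70% of the 28332 transcripts that reached 2 TPM in both BY-2H phases. Because the rule used the contrast of BY-2H with BY-2, that contrast is described below and not tested. The same members were then followed in the VBI lines and along the genome scaffolds, which did not enter the rule, and between the BY-2H phases, whose levels did.

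Most plant suspension cultures divide only when an auxin such as 2,4-D is supplied, and a line that has become habituated divides without it. Auxin is perceived by TIR1/AFB F-box proteins, which target the AUX/IAA repressors for degradation and so release the ARF transcription factors. Tobacco is an allotetraploid, so many genes have a near-identical copy from the other parental genome, and reads can be shared between the copies. RNA levels alone do not show whether a silent locus is present in the genome of a line, and no DNA was examined here.

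The 21 libraries came from 7 groups of 3 biological replicates of suspension cells kept in the dark. BY-2H cells, the Riken line rpc00036 derived from cultivar Bright Yellow 2, were grown in MS medium without auxin and sampled in stationary (10 d) and exponential (3 d) phase. BY-2 cells were grown in MS medium with 2,4-D and were represented in stationary phase alone (10 d in the labels, 7 d in the methods). VBI-2 cells, habituated and grown without auxin, and VBI-0 cells, grown with auxin, come from cultivar Virginia Bright Italia, grew in modified Heller medium and were sampled at 10 and 3 d. BY-2H libraries were sequenced as pairs of 150 bp by one company and all others as single reads of 50 bp by another, so line, auxin supply, company and read type cannot be told apart between BY-2H and BY-2. BY-2, VBI-2 and VBI-0 shared the read type and the company.

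Libraries held between 10545447 and 22564711 estimated reads, and those of BY-2H (10595226 to 13755473) and of BY-2 (11364447 to 13111763) were of similar depth. At least 1 read was listed for 42391 to 44007 transcripts in BY-2H libraries and for 42207 to 44365 in BY-2 libraries. The BY-2 replicates lay farther from each other than those of the other lines, with a chi-squared per degree of freedom over transcripts of 28.6 to 31.6 against 2.03 to 8.09 elsewhere. The labels of the lines were met by their defining transcripts. NtTIR1T (Nitab4.5_0000824g0070.1), an auxin receptor, had 1140 to 1275 TPM in BY-2H and 5.81 to 11.7 TPM in BY-2. The floral MADS-box transcript NtPI-like1T (Nitab4.5_0000418g0050.1) had 208 to 352 TPM in VBI-2 and at most 0.193 TPM in VBI-0.

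Most members were of low to moderate abundance in BY-2H. Their mean over the 6 BY-2H libraries had a median of 6.23 TPM with quartiles at 3.64 and 12.4 TPM, against a median of 10.98 TPM for the 27568 transcripts that were on in BY-2H with reads in BY-2. There were 297 members below 5 TPM, 236 at or above 10 TPM and 20 at or above 100 TPM. Each BY-2H library listed a read for 737 to 750 of the 764 members. Together they made up 19845 to 20357 TPM in stationary and 18709 to 19537 TPM in exponential BY-2H libraries, against 1.01 to 2.90 TPM in BY-2, 8028 to 8192 TPM over the VBI-2 libraries and 7002 to 7783 TPM over the VBI-0 libraries. All 3 BY-2 libraries listed exactly 0 reads for 747 members, and the other 17 had a fraction of a read in at least 1 of them.

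A single transcript supplied a large part of that sum. Nitab4.5_0000123g0160.1, which is 465 bases long and has no name in the tables used here, had 8805, 8126 and 7913 TPM in stationary and 6980, 7427 and 7322 TPM in exponential BY-2H libraries. It ranked as number 2 among all transcripts by mean TPM in BY-2H. All 3 BY-2 libraries listed 0 reads for it, and it had 0 to 0.336 TPM in VBI-2 and 0 to 4.15 TPM in VBI-0. At the stationary BY-2H level, 138367 reads would be expected over the 3 BY-2 libraries when scaled by TPM and effective length, and 85344 when scaled by read counts alone. With a floor of 3 reads over the group, these put BY-2H at least 46122-fold and at least 28448-fold higher. Its scaffold holds a second abundant member, Nitab4.5_0000123g0140.1, with 238, 268 and 196 TPM in stationary and 191, 199 and 203 TPM in exponential BY-2H libraries and 0 in all 15 libraries of the other lines. The transcript between them, Nitab4.5_0000123g0150.1, was on in both lines, with means of 34.2 TPM in stationary BY-2H and 6.28 TPM in BY-2.

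The next members by abundance included transcripts with ample signal in the VBI lines and others with little or none there. Nitab4.5_0002189g0050.1 had 360 to 377 TPM in BY-2H, 61.0 to 72.4 TPM in VBI-2 and 90.2 to 122.9 TPM in VBI-0. Nitab4.5_0004982g0080.1 had 232 to 253 TPM in BY-2H, 92.2 to 103 TPM in VBI-2 and 129 to 145 TPM in VBI-0. For this pair, 16739 and 17156 reads would be expected over the 3 BY-2 libraries, and 0 were listed. The VBI libraries held 10758 and 28077 reads of them with the same read type as BY-2. Nitab4.5_0006433g0010.1 was more abundant in most VBI libraries than in BY-2H, with 177 to 219 TPM in BY-2H, 218 to 290 TPM in VBI-2 and 233 to 363 TPM in VBI-0. Nitab4.5_0007657g0020.1 had 208 to 227 TPM in BY-2H, 158 to 223 TPM in VBI-2 and 225 to 362 TPM in VBI-0, so that its ranges met. By contrast Nitab4.5_0000844g0050.1, a short transcript of 249 bases, had 465, 575 and 758 TPM in stationary BY-2H libraries, reads in only 2 VBI-2 libraries (2.90 and 1.89 TPM) and none in VBI-0. Of the others among the 15 most abundant members, a pair on scaffold Nitab4.5_0007227 is described with its run, and 6 remained. Nitab4.5_0003259g0080.1 had 231 to 281 TPM in BY-2H, 38.5 to 49.96 TPM in VBI-2 and 54.9 to 115 TPM in VBI-0, and Nitab4.5_0003456g0010.1 had 158 to 169 TPM in BY-2H, 45.8 to 56.2 TPM in VBI-2 and 24.6 to 27.6 TPM in VBI-0. Their libraries overlapped neither between BY-2H and the VBI lines nor between VBI-2 and VBI-0. The other 4 were at most 300 bases long. Nitab4.5_0013289g0010.1 and Nitab4.5_0000434g0190.1 were on in every VBI library, and Nitab4.5_0004190g0030.1, with 133 to 180 TPM in BY-2H, had 0 to 8.55 TPM in VBI-2 and 6.44 to 15.5 TPM in VBI-0. Nitab4.5_0000055g0300.1 had 168 to 228 TPM in BY-2H, 3.99 to 22.9 TPM in VBI-2 and a signal in 1 VBI-0 library alone, of 0.862 TPM.

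**Figure D1:**
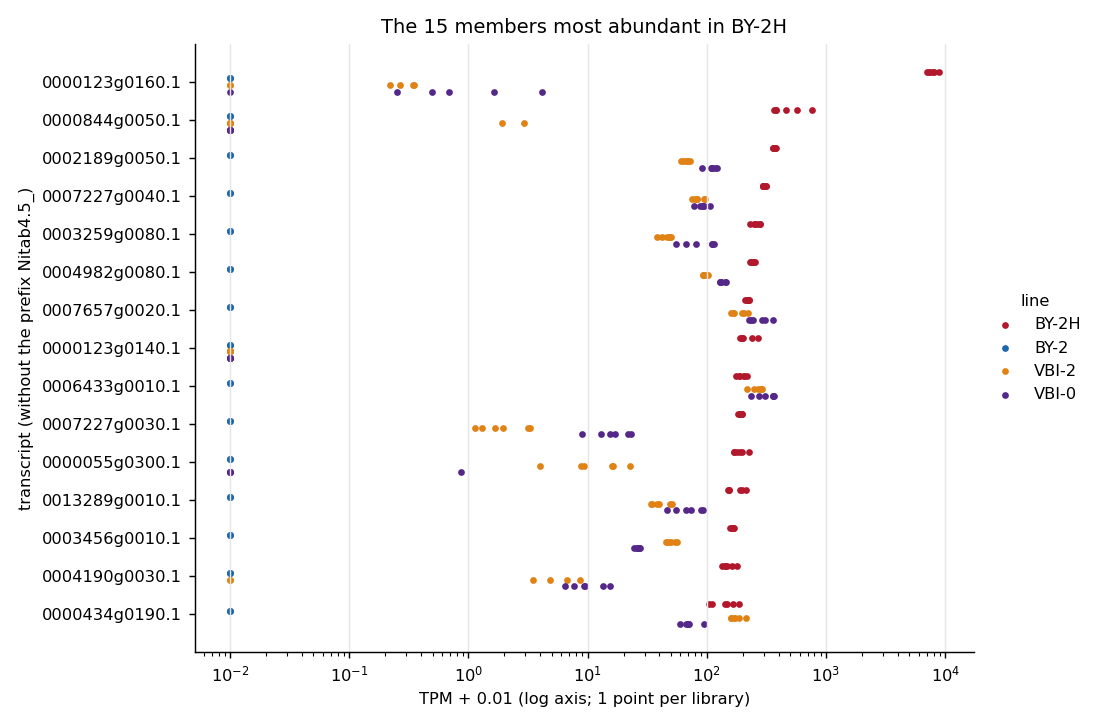
TPM of the 15 members with the highest mean in BY-2H, drawn as 1 point per library on a log axis after adding 0.01, with the lines BY-2H, BY-2, VBI-2 and VBI-0 in separate colours. All BY-2 points lie at 0 reads (0.01 on the axis), Nitab4.5_0000123g0160.1 stands at 6980 to 8805 TPM in BY-2H, and 11 of the other 14 were detected in both VBI lines.

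At their stationary BY-2H level, most members would be expected to have reads in BY-2 at its depth. Scaled by TPM and effective length to that level, a median of 156 reads per member would be expected over the 3 BY-2 libraries. At least 10 reads in each library would be expected for 591 members, and fewer than 10 in at least 1 library for 173 (22.6%). This carries levels from pairs of 150 bp to single reads of 50 bp, and whether both assign reads alike was not tested. When read counts were scaled without effective lengths, the median was 94.4 reads. For 16 members fewer than 3 reads would be expected over the 3 libraries, and their difference between the lines was not detectable at this depth. These floors and the Wilson intervals given below cover counting error only.

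**Figure D2:**
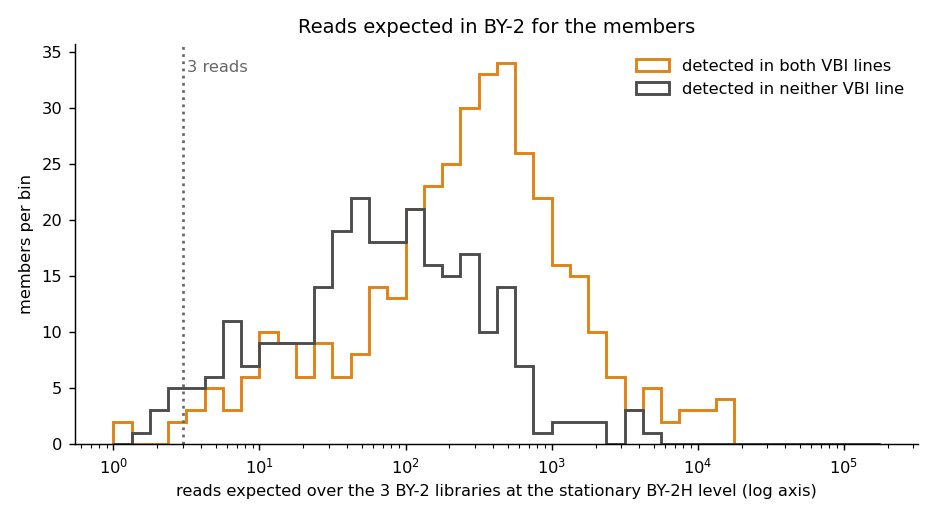
Histogram of the reads expected over the 3 BY-2 libraries if the members had their stationary BY-2H level, on a log axis, for the 377 members detected in both VBI lines and the 267 detected in neither. The dotted line marks the floor of 3 reads, and the medians of the distributions are 289 and 70.6 reads.

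Members were shorter than other transcripts on in BY-2H, with a median of 606 bases (quartiles 312 and 1017) against 1163 bases (780 and 1737). Of the transcripts on in BY-2H, 14.6% of those under 300 bases were members, 6.0% of those from 300 to under 600 bases, 2.74% of those from 600 to under 1000 bases and 1.18% of the longer ones. Members under 300 bases had a median effective length of 30.7 bases in stationary BY-2H and 20 bases in BY-2, so their TPM rested on few reads. Members at 2 to 5 TPM made up 4.55% of the on transcripts of that level, and those at 100 TPM or more made up 1.09%. The part of length and abundance in the choice of the members was not tested.

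Many members were on in the VBI lines, though fewer than among other transcripts. A mean above 0.5 TPM in at least 1 phase was found in both lines for 377 members (49.3%, 95% Wilson interval 45.8 to 52.9%), in VBI-2 only for 46, in VBI-0 only for 74 and in neither for 267. The same count for the other transcripts on in BY-2H, all with reads in BY-2, was 24191 of 27568 in both lines (87.8%) and 1099 (3.99%) in neither. The rule thus split the transcripts by their reads in BY-2, which shares read type and company with the VBI lines. The part of this split in the difference was not tested. The Wilson intervals treat the members as independent draws, although neighbours on a scaffold are not independent, and do not cover changes of the limits. By group, VBI-2 detected 398 members in stationary and 412 in exponential phase, and VBI-0 detected 428 in stationary and 419 in exponential phase. A mean of at least 2 TPM in all 4 VBI groups was reached by 258 members. At the other end, 136 members (17.8%, Wilson interval 15.3 to 20.7%) had fewer than 1 read in each of the 12 VBI libraries. These members were thus silent in all 15 libraries of single 50-bp reads. Of the other transcripts on in BY-2H, 367 (1.33%) had fewer than 1 read in each of the 12 VBI libraries, but all of those had reads in BY-2.

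Members detected in both VBI lines and members detected in neither differed in length and level. Medians were 822 bases and 7.09 TPM for the 377 members in both lines, against 453 bases and 4.93 TPM for the 267 in neither. The 136 members silent in all VBI libraries had a median length of 321 bases. In 71 of these 136 at least 10 reads would be expected in each BY-2 library, among them Nitab4.5_0000123g0140.1. For the members in both lines, the median ratio of mean TPM to that in BY-2H was 0.734 in VBI-2 and 0.836 in VBI-0, against 0.960 and 0.928 for the 24191 other on transcripts detected in both lines. Over all 764 members the median ratios were 0.114 in VBI-2 and 0.156 in VBI-0, against 0.837 and 0.843 over all 27568 other on transcripts. VBI-2 had at least the BY-2H level for 147 members and VBI-0 for 172.

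A pair of members of similar length, put together after their values had been seen, shows the contrast. Nitab4.5_0000516g0130.1 (765 bases) had 105, 110 and 116 TPM in stationary and 126, 123 and 119 TPM in exponential BY-2H libraries, and at most 0.0975 TPM in any VBI library. Nitab4.5_0007227g0040.1 (822 bases) had 294 to 311 TPM in BY-2H, 75.3 to 96.1 TPM in VBI-2 and 78.0 to 106 TPM in VBI-0. BY-2 had 0 reads for both, where 4437 and 13204 would be expected.

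Whether the members followed habituation in the second pair of lines was tested by comparing VBI-2 with VBI-0 over all transcripts with edgeR's quasi-likelihood test (called where the p-value after Benjamini-Hochberg adjustment was 0.05 or less and the log2 fold change was 1 or more in either direction). In stationary phase, 76 of the 497 members tested were called higher in VBI-2 (15.3%, against 18.7% of all transcripts tested) and 121 lower (24.3%, against 23.3%). In exponential phase the counts were also 76 higher (against 18.0% of all) and 121 lower (against 22.6%). Both shares lay near those of all transcripts. The median log2 fold change of the members was -0.37 in stationary and -0.36 in exponential phase, against -0.03 for all transcripts in both. Only members above 0.5 TPM in at least 1 VBI group were tested. This filter favours a difference in those that passed in 1 line alone. Of the 46 that passed in VBI-2 alone, 27 were called higher in stationary and 28 in exponential phase. Of the 74 that passed in VBI-0 alone, 47 were called lower in stationary and 43 in exponential phase. The shares over all transcripts that passed in 1 line alone were not computed, and nothing is read from these counts. Among the 377 that passed in both lines, 49 were higher (13.0%, against 15.9% of all transcripts detected in both lines) and 74 lower (19.6%, against 18.4%) in stationary phase. In exponential phase 48 of them were higher (12.7%, against 15.2%) and 78 lower (20.7%, against 17.7%). In both phases, 61 members were called higher (12.3%, against 14.3% of all transcripts tested) and 89 lower (17.9%, against 19.1%). No member was called in opposite directions, and 253 were called in neither phase. The spread is that of 3 replicates per group, and the auxin in the medium changed together with the line.

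**Figure D3:**
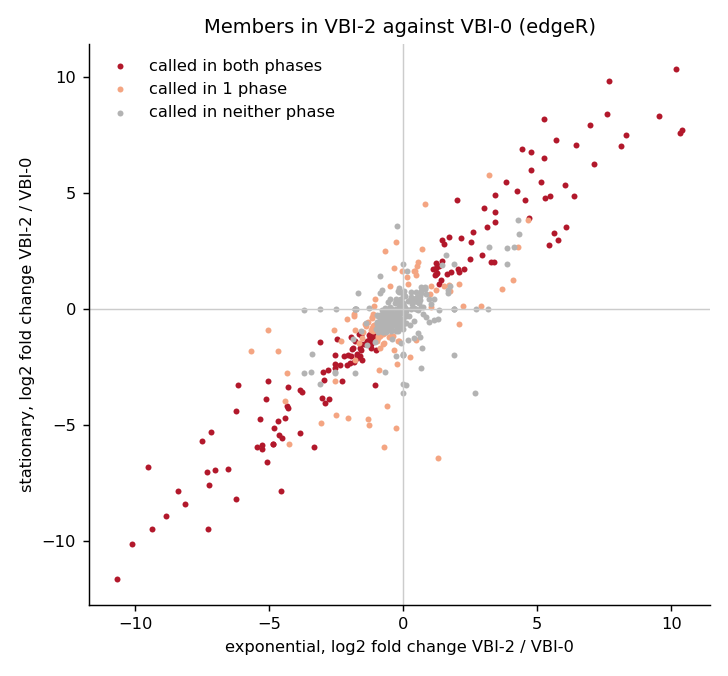
Log2 fold change of VBI-2 over VBI-0 in stationary phase (y axis) against that in exponential phase (x axis) for the 497 members tested, 1 point each, coloured by the number of phases in which edgeR called them. The 61 members called higher in both phases lie at the upper right and the 89 called lower in both at the lower left.

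The members with the largest differences were at or near 0 in 1 of the VBI lines. Where a member was tested only through the line in which it was on, its values are given without a p-value. Nitab4.5_0006360g0020.1 had 21.4, 25.6 and 25.9 TPM in stationary VBI-2 and 0 reads in stationary VBI-0, at least 149-fold higher with the floor of 3 reads. It had 18.5, 22.9 and 24.4 TPM in exponential VBI-2 and again 0 reads in VBI-0. Its level in BY-2H was only 2.30 to 6.44 TPM. Nitab4.5_0003904g0040.1 had 142, 161 and 163 TPM in stationary VBI-2 against 0.304, 0.743 and 0.347 TPM in stationary VBI-0, a log2 difference of 8.40 (SE 0.196; edgeR adjusted p = 2.63e-16). Nitab4.5_0000574g0140.1 averaged 26.2 ± 2.06 TPM in exponential VBI-2 and 0.0617 ± 0.0556 TPM in exponential VBI-0 (SD, n = 3 each). Nitab4.5_0000779g0030.1 and Nitab4.5_0000180g0060.1, with 13.2 and 23.8 TPM in exponential VBI-2, had 0 reads in exponential VBI-0. In the other direction, Nitab4.5_0021852g0010.1 had 0 reads in stationary VBI-2 against 47.4, 53.4 and 41.9 TPM in stationary VBI-0. In exponential phase it had 0 reads in VBI-2 against 17.6, 19.7 and 22.1 TPM in VBI-0. Nitab4.5_0000146g0170.1, Nitab4.5_0000018g0080.1 and Nitab4.5_0002901g0070.1 were likewise listed at 0 in all 6 VBI-2 libraries and had 13.6 to 18.9, 6.80 to 11.7 and 8.06 to 12.9 TPM in VBI-0. Nitab4.5_0000548g0100.1 and Nitab4.5_0000020g0370.1 had 8.04 to 10.3 and 4.59 to 9.28 TPM in VBI-0, and each had a signal in just 1 VBI-2 library, of 0.271 and 0.0817 TPM. Nitab4.5_0000591g0050.1 and Nitab4.5_0000059g0410.1 were the others with the largest positive fold changes in stationary phase, at 5.94 and 1.85 TPM in VBI-2 against 0 and 0.00394 TPM in VBI-0. None of these has a name in the tables used here.

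Members on in both lines grown without auxin and silent in both lines grown with it were few. With the same limits in the VBI pair (at least 2 TPM in both VBI-2 phases and fewer than 1 read in each VBI-0 library), 6 members (0.785%) were on in VBI-2 and silent in VBI-0. Among the other transcripts on in BY-2H, 148 (0.537%) met that rule. The opposite pattern, on in VBI-0 and silent in VBI-2, was met by 12 members (1.57%) and 620 of the others (2.25%). The 6 included Nitab4.5_0008781g0030.1, which the study lists as a LuxR family transcription factor, with 8.52, 7.90 and 4.81 TPM in stationary and 5.86, 4.43 and 10.3 TPM in exponential BY-2H. It had 2.37, 4.20 and 3.88 TPM in stationary and 6.88, 9.04 and 8.76 TPM in exponential VBI-2, and 0 reads in BY-2 and VBI-0. The other 5, named after their values had been seen, were Nitab4.5_0006360g0020.1 (541 bases), Nitab4.5_0000044g0520.1 (258 bases), Nitab4.5_0000141g0220.1 (228 bases), Nitab4.5_0007792g0050.1 (270 bases) and Nitab4.5_0000242g0050.1 (186 bases).

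Between the BY-2H phases, the rule asks for 2 TPM in both and so favours transcripts that change little, and nothing is read from the share of members called. In stationary against exponential BY-2H cells, edgeR called 4 of the 764 members higher (0.524%, against 1.90% of all transcripts tested) and 18 lower (2.36%, against 1.05%). The count of higher members was 7 without exponential replicate 1 of BY-2H, and the count of lower members was 8 when all 21 libraries were fitted together. Nitab4.5_0003719g0050.1 had 40.2, 34.3 and 35.6 TPM in stationary and 4.62, 4.49 and 5.02 TPM in exponential BY-2H, a log2 difference of 2.96 (SE 0.102; edgeR adjusted p = 1.53e-32). Nitab4.5_0012157g0030.1 had 34.7, 32.5 and 28.0 TPM in stationary and 4.12, 3.77 and 3.35 TPM in exponential BY-2H (log2 fold change 3.12 ± 0.123, adjusted p = 1.26e-29). For these 2 members, 4954 and 3319 reads would be expected in BY-2, where 0 were listed. Nitab4.5_0003719g0050.1 had 1.26 to 2.48 TPM in the VBI lines, and Nitab4.5_0012157g0030.1 was at 0 in VBI-0 and at most 0.312 TPM in VBI-2. Nitab4.5_0006384g0020.1 also rose (9.12 ± 0.627 TPM in stationary and 3.74 ± 0.965 TPM in exponential cells, SD, n = 3 each; edgeR adjusted p = 7.43e-08).

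The members that fell in stationary BY-2H cells included Nitab4.5_0002926g0030.1, with 5.10, 6.88 and 5.68 TPM in stationary and 24.1, 17.3 and 15.5 TPM in exponential libraries (log2 fold change -1.66 ± 0.199, adjusted p = 1.93e-09). Nitab4.5_0008656g0020.1 averaged 2.35 TPM in stationary and 8.03 TPM in exponential cells, and Nitab4.5_0008601g0010.1 had 2.74, 2.47 and 2.75 TPM in stationary and 6.84, 7.80 and 8.66 TPM in exponential libraries. The groups did not overlap in any of these. Calls for Nitab4.5_0003114g0080.1 (higher), Nitab4.5_0004066g0100.1 and Nitab4.5_0000074g0190.1 (both lower) were lost with DESeq2 and with some replicates left out, and the last of these is only 189 bases long.

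The IDs give a scaffold and an order along it, and members were scattered over 642 scaffolds. There were 550 scaffolds with 1 member, 71 with 2, 13 with 3, 7 with 4 and 1 with 5. Adjacent members formed 44 runs, 36 of 2 members, 7 of 3 and 1 of 4, which together held 97 members (12.7%, Wilson interval 10.5 to 15.2%). In comparable lists the share in runs was of the same order or higher: 14.7% of the 1346 transcripts on in BY-2 and silent in all 6 BY-2H libraries, 14.6% of the 424 on in VBI-2 and silent in VBI-0, and 30.5% of the 960 on in VBI-0 and silent in VBI-2. These lists differ in size and in the number of libraries that must be silent, and the differences between the shares were not tested.

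On transcripts next to a member were more often members, or below 10% of their BY-2H level in BY-2, than on transcripts in general. Counted from each member, 106 of 551 transcripts on in BY-2H at 1 step were members (19.2%), and the share was 16.7% at 2 steps, 10.4% at 5 steps and 1.59% at 10 steps, against 2.70% of all transcripts on in BY-2H. Each adjacent pair of members counts from both sides in these shares. Of the on neighbours at 1 step that had reads in BY-2, 85 of 445 (19.1%) had a BY-2 mean below 10% of the stationary BY-2H mean, against 5.50% of all such transcripts. At 10 steps this share was 7.26%. Neighbours on a scaffold are not independent of each other, and the shares are a description.

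**Figure D4:**
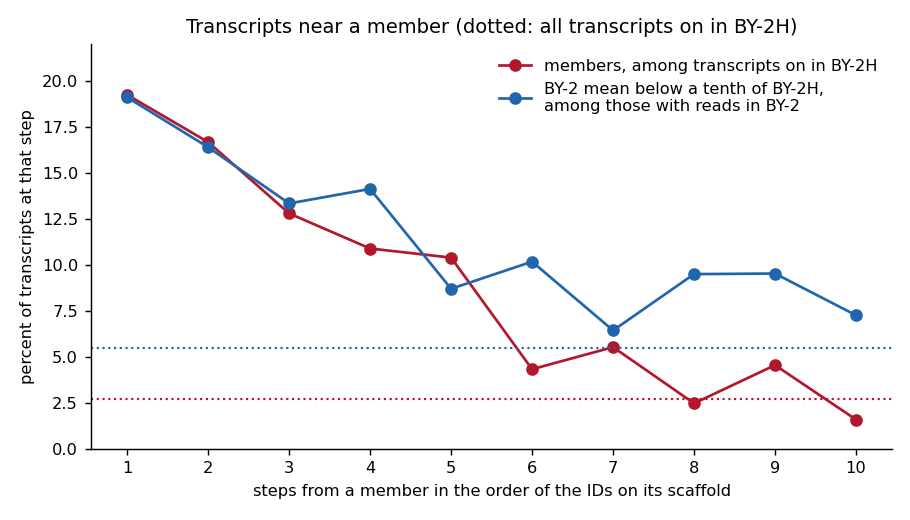
Percent of transcripts on in BY-2H that are members (red), and percent of on transcripts with reads in BY-2 whose BY-2 mean is below 10% of the stationary BY-2H mean (blue), by the number of steps from a member in the order of the IDs. Dotted lines give the shares over all transcripts on in BY-2H, 2.70% and 5.50%, and both shares are highest at 1 step, at 19.2% and 19.1%.

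On the 21 scaffolds with 3 or more members, 72 members stood beside 67 other on transcripts, of which 19 (28.4%) were below 10% of their BY-2H level in BY-2. On 11 of these scaffolds, every transcript on in BY-2H was a member or was below that level. Of these 11, Nitab4.5_0003763, Nitab4.5_0005873, Nitab4.5_0007130, Nitab4.5_0007144, Nitab4.5_0008751 and Nitab4.5_0008797 held no on transcript besides members, so none there could exceed the level. Of the 72 members, 56 were detected in both VBI lines and 5 were silent in both. Scaffold Nitab4.5_0002902 had the most members, 5 of 17 transcripts, between 3.79 and 65.0 TPM in BY-2H and all detected in both VBI lines. Its run of 3 consisted of Nitab4.5_0002902g0120.1, Nitab4.5_0002902g0130.1 and Nitab4.5_0002902g0140.1, with stationary means of 25.9, 67.2 and 4.09 TPM in BY-2H and 0 in BY-2. Nitab4.5_0002902g0030.1, which missed the read limit, had 154 TPM in stationary BY-2H and 0.14 TPM in BY-2, and its means were 111 TPM in VBI-2 and 564 TPM in VBI-0. Yet Nitab4.5_0002902g0110.1, in the middle of the members, had 38.5 TPM in stationary BY-2H and 14.7 TPM in BY-2, so silence did not extend over every transcript of the scaffold.

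Scaffold Nitab4.5_0006433 held 4 members among 6 transcripts. Its run of Nitab4.5_0006433g0030.1, Nitab4.5_0006433g0040.1 and Nitab4.5_0006433g0050.1 had stationary means of 14.3, 3.66 and 6.02 TPM in BY-2H, and the remaining on transcript, Nitab4.5_0006433g0060.1, had 9.72 TPM in stationary BY-2H and 0.08 TPM in BY-2. On scaffold Nitab4.5_0002500, the run of Nitab4.5_0002500g0030.1, Nitab4.5_0002500g0040.1 and Nitab4.5_0002500g0050.1 had 5.26, 12.9 and 14.9 TPM in stationary BY-2H. It lay between Nitab4.5_0002500g0020.1, with 96.3 TPM in stationary BY-2H and 0.15 TPM in BY-2, and Nitab4.5_0002500g0060.1, with 17.9 TPM in stationary BY-2H and 12.6 TPM in BY-2. All members of both scaffolds were detected in both VBI lines. All 3 transcripts of scaffold Nitab4.5_0007130, singled out after its values had been seen, were members, with stationary means of 24.2, 32.4 and 5.82 TPM in BY-2H.

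The longest run differed from these, since its 4 members had hardly any reads in the VBI lines as well. On scaffold Nitab4.5_0002512, Nitab4.5_0002512g0010.1 had 23.7, 24.9 and 28.5 TPM in stationary and 30.3, 32.1 and 31.1 TPM in exponential BY-2H. Nitab4.5_0002512g0020.1, Nitab4.5_0002512g0030.1 and Nitab4.5_0002512g0040.1 had stationary means of 53.3, 36.0 and 19.7 TPM in BY-2H. They are 228, 300 and 279 bases long, against 972 bases for the first. Of all members under 300 bases, 36.5% were silent in every VBI library. Over all VBI libraries the 4 members of the run had 2.04, 0, 1 and 0 estimated reads. Over the BY-2 libraries 0.858 of a read was assigned to Nitab4.5_0002512g0030.1 and none to the other 3. The next transcripts on the scaffold, Nitab4.5_0002512g0050.1 and Nitab4.5_0002512g0060.1, were on in every line, with 65.3 and 4.73 TPM in stationary BY-2H and 4.56 and 3.03 TPM in BY-2. The run of 3 on scaffold Nitab4.5_0001308 (Nitab4.5_0001308g0070.1, Nitab4.5_0001308g0080.1 and Nitab4.5_0001308g0090.1, with means of 10.7 to 20.9 TPM in BY-2H) was of the same kind, and only the second of these exceeded 0.5 TPM in any VBI library, with 0.992 TPM at most, in VBI-0. Of the 44 runs, 23 had all members detected in both VBI lines and 9 had none detected in any VBI group.

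The run of 3 on scaffold Nitab4.5_0007227, described after its values had been seen, held the most abundant neighbours. Nitab4.5_0007227g0020.1 had 43.5 to 55.1 TPM, Nitab4.5_0007227g0030.1 had 182 to 198 TPM and Nitab4.5_0007227g0040.1 had 294 to 311 TPM in BY-2H. The first and the last of them had similar levels in both VBI lines. Nitab4.5_0007227g0030.1 averaged 1.36 TPM in stationary VBI-2 and 12.4 TPM in stationary VBI-0, a log2 fold change of -3.06 ± 0.270 (edgeR adjusted p = 1.11e-08). On either side stood transcripts with reads in BY-2. Nitab4.5_0007227g0010.1, 198 bases long, had 0 TPM in stationary BY-2H and 93.5 TPM in BY-2, and Nitab4.5_0007227g0050.1 had 40.3 TPM in stationary BY-2H and 62.8 TPM in BY-2.

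**Figure D5:**
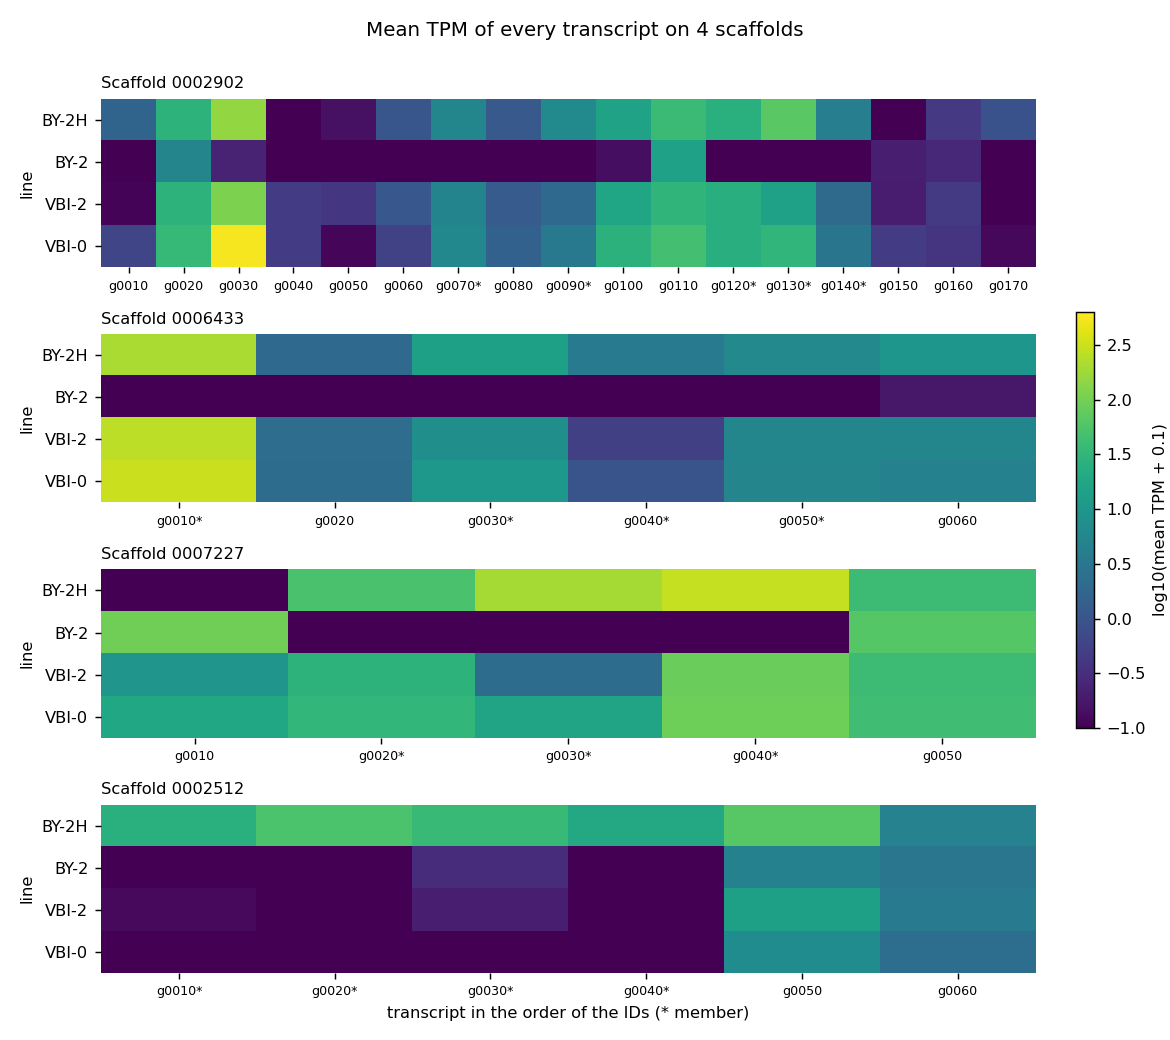
Mean TPM of every transcript on the scaffolds Nitab4.5_0002902, Nitab4.5_0006433, Nitab4.5_0007227 and Nitab4.5_0002512, as log10(mean TPM + 0.1), in stationary BY-2H, stationary BY-2, VBI-2 and VBI-0 (both phases), with transcripts in the order of their IDs and members marked by an asterisk. In BY-2 the members are dark in all 4 scaffolds. In the VBI lines they are visible in the first 3 scaffolds and dark in Nitab4.5_0002512.

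The scaffold of NtTIR1T held no member among its 13 transcripts. Of the study's list of auxin-related genes, 524 were on in BY-2H and 6 of these were members (1.15%, against 2.70% of all transcripts on in BY-2H). None of the 30 on transcripts of the ARF family and none of the 31 of the AUX/IAA family was a member. Of the 11 on auxin receptors, 1 was: Nitab4.5_0010603g0020.1 had 3.30, 4.55 and 2.26 TPM in stationary and 4.18, 5.04 and 3.26 TPM in exponential BY-2H, 0 in BY-2 and at most 0.934 TPM in VBI-2 and 0.716 TPM in VBI-0. About 70.6 reads would be expected for it over the 3 BY-2 libraries. The transcript before it on that scaffold, Nitab4.5_0010603g0010.1, was also a member, was at 0 in BY-2 and averaged 0.386 TPM in exponential VBI-2 and 7.44 TPM in exponential VBI-0. The other 5 listed members carry no class. The most abundant of them, Nitab4.5_0002763g0040.1, named after its values had been seen, had 78.1 to 92.8 TPM in BY-2H and 0 in all 15 other libraries. All 18 components of Polycomb repressive complex 2 (PRC2), which deposits a repressive histone mark, were on in BY-2H, and 0 were members.

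Of 72 transcription factors that the study lists as specific to a line, 22 were on in BY-2H and 9 were members. That list was chosen on these samples and is not independent evidence. Nitab4.5_0003651g0030.1, an AGAMOUS-like MADS-box factor (AGL29), had 4.32, 4.33 and 4.58 TPM in stationary and 8.19, 9.30 and 10.3 TPM in exponential BY-2H. It was thus lower in stationary cells (log2 fold change -1.05 ± 0.281, edgeR adjusted p = 0.00706), and 1 VBI-0 library (0.481 TPM) was the only other with a signal. Nitab4.5_0000130g0070.1, an ethylene response factor (ERF7), had 7.19 to 7.61 TPM in stationary and 8.09 to 9.69 TPM in exponential BY-2H and 0 in all 15 other libraries. Nitab4.5_0003096g0040.1, a JMJ25-like protein of the jumonji family of histone demethylases, had 6.26 to 8.14 TPM in BY-2H and 0 in BY-2. It averaged 8.42 ± 0.408 TPM in stationary VBI-2 and 0.17 ± 0.0289 TPM in stationary VBI-0 (SD, n = 3 each), a difference that the choice of the list fixes. Nitab4.5_0000691g0100.1, with no family given, had 2.41 to 4.58 TPM in BY-2H, 1.32 to 3.04 TPM in VBI-2 and 0 reads in VBI-0. Nitab4.5_0000010g0220.1, Nitab4.5_0000271g0040.1, Nitab4.5_0006031g0030.1 and Nitab4.5_0006318g0070.1 had means of 3.21, 2.38, 2.12 and 3.03 TPM in BY-2H and stayed at or below 0.5 TPM in every VBI group.

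Read type changed with the contrast that chose the members, as did line and company, and the share of estimates that are not whole numbers differed between the lines as well. A read that matches several transcripts is split between them, which leaves estimates that are not whole numbers. Among estimates above 0, 36.5% of the members' values in BY-2H were not whole (tolerance 0.001), against 62.3% for other on transcripts. In the single 50-bp reads of VBI-2 and VBI-0 the shares were 76.6% and 78.9% for members, and 88.6% and 90.9% for other on transcripts. All 6 BY-2H estimates were whole for 323 members, and 129 of these (39.9%) were detected in both VBI lines. Of the 441 other members, 248 (56.2%) were. The 377 members detected in both VBI lines were listed above 0.5 TPM there with the read type, company and transcript set used for BY-2. The VBI lines are of another cultivar and grew in another medium. The part of read assignment in the silence of BY-2 was not tested.

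At the limits of the rule the values were continuous. The 3 members nearest to the TPM limit were Nitab4.5_0003290g0060.1, Nitab4.5_0006942g0070.1 and Nitab4.5_0000139g0190.1, with 2.00, 2.00 and 2.01 TPM in the lower BY-2H phase. Just outside it, Nitab4.5_0001550g0080.1, Nitab4.5_0002837g0070.1 and Nitab4.5_0000625g0120.1 had 1.997, 1.98 and 1.97 TPM in the lower phase and 0 reads in BY-2. Nitab4.5_0007461g0020.1, Nitab4.5_0006237g0020.1 and Nitab4.5_0001464g0110.1, with 0.999, 0.998 and 0.996 of a read in 1 BY-2 library, lay just inside the read limit, and Nitab4.5_0003547g0050.1, Nitab4.5_0000160g0150.1 and Nitab4.5_0006104g0010.1, with 1 read in a BY-2 library, lay just outside.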

How the data were processed

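RNA of 21 tobacco suspension libraries (7 groups of 3) was analysed. The authors quantified reads with Salmon 1.3.0 against the Nitab4.5 transcripts after trimming, for which the submitters' processing notes name Trimmomatic. The deposited tables give estimated counts, TPM and 2 other columns, the length and effective length of each of 69491 transcripts, with no scaling between libraries. Reads that fit several transcripts were shared among them by the authors' tool.

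The members and lists were chosen with earlier results of these data known. Expected BY-2 reads were the mean stationary BY-2H TPM times effective length, scaled to each library total. Estimated counts were rounded, normalized by TMM and tested by the quasi-likelihood method of edgeR 4.0.16 in R 4.3.3, with Benjamini-Hochberg adjusted p-values over all transcripts, on 12 VBI or 6 BY-2H libraries, for transcripts above 0.5 mean TPM in at least 1 group of the fit. Alternatives used DESeq2 1.42.0, limma 3.58.1 on log2(TPM + 0.5) or log2(TPM + 1), other filters, the replicate number as a block and each library left out. The fits were checked on simulated counts.

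Named transcripts were the 15 most abundant members, those in the study's tables with a class or name, those of the 5 longest runs, per comparison the 5 highest and 5 lowest called members without overlap, and those next to the limits. Members shown as singled out later are marked, and Nitab4.5_0010603g0010.1 was named as the neighbour of a listed member. The p-values measure only the spread between these replicates. None of the 764 IDs was found in the RefSeq gene table used here (another assembly), so no coordinates and sequences are given. The authors' own comparisons were not used.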

Additional observations from a re-analysis of the deposited data

How the results depend on the processing

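The number of members was 1170 at a limit of 1 TPM and 410 at 5 TPM, 1231 with fewer than 3 reads allowed per BY-2 library and 1488 with at most 0.5 TPM in each BY-2 library. Leaving out 1 library gave 744 to 982 members, the highest without BY-2 replicate 3. The share of members in runs was 10.5% at 5 TPM and 12.3 to 13.3% with 1 library left out. The share detected in both VBI lines was 42.8% at 1 TPM, 56.3% at 5 TPM, 45.6% with stationary BY-2H alone, 54.3% with at least 10 expected reads per BY-2 library, 57.6% and 43.6% with detection above 0.1 and 1 TPM, 48.7 to 50.1% with 1 library left out and, in an alternative chosen after seeing the data, 53.4% among transcripts of at least 300 bases. Members with 10 expected reads numbered 591 to 599 with 1 BY-2 library left out. Estimates that were not whole made up 29.6% at a tolerance of 0.01.

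By the adjusted p alone, 201 members were lower in exponential and 186 in stationary VBI-2, and 24 were higher and 41 lower in stationary BY-2H, against 8 lower with all 21 libraries in 1 fit. With 1 library left out, higher and lower counts were 64 to 76 and 108 to 120 in exponential VBI, 71 to 78 and 114 to 124 in stationary VBI, and 3 to 7 and 15 to 21 in BY-2H. Same-numbered replicates did not deviate together (correlations of -0.02 to 0.09), so the numbers were not taken as pairs. With the replicate block, the higher and lower counts were 75 and 121 in stationary VBI, 73 and 117 in exponential VBI, and 4 and 17 in BY-2H. Of 29 results for members named from the fits, 3 lost their call under some of the alternatives and 0 reversed. A member named in both VBI phases counts once for each phase.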
